A study of Mus musculus with 36 samples.

Results

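The mRNAs of 10 genes whose 4-thiouridine (4sU) label was lost more slowly without METTL3 were followed through all libraries of a SLAM-seq experiment in mouse embryonic stem cells (mES cells). They are Mrm3, Mul1, Tmem11, Nxt1, Clp1, Kti12, Pelo, Mad2l1bp, Ccdc71 and Tpst2, 10 of the 18419 genes listed in all 6 deposited tables. They were chosen by measured values of the METTL3 line, namely a slower fall of the new-to-total ratio during the chase, so every comparison of the METTL3 arms below is a description of these genes and carries no test. In SLAM-seq, RNA made during a 4sU pulse is recognized by T-to-C mismatches, and the new-to-total ratio is the share of a gene's RNA that GRAND-SLAM assigns to labeled molecules, given here as the maximum of its posterior (MAP).

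The cells were 3 Cast x 129S lines, each a single clone, in which METTL3 (12D), YTHDC1 (Y12H) or ZCCHC8 (Z12H) carried an FKBP12 F36V tag, through which the added ligand dTAG-13 has the protein degraded. In every library, controls included, the Xist promoter of the 129S allele had been exchanged for a TetOn promoter, the Xist RNA carried a Bgl stem loop array, and doxycycline at 1 µg/ml had been given for 20 h before the pulse and during it. Ctrl cells received no dTAG-13, and dTAG cells received it from 2 h before doxycycline. The pulse of 4 h with 500 µM 4sU ended with a switch to 50 mM uridine, and cells were collected 0, 90 or 180 min into this chase. There were 2 replicates of each of 18 groups, hence 36 libraries, with 12 for each line and 6 for each arm of a line.

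N6-methyladenosine (m6A) is placed on mRNA as it is made, and METTL3 is the enzyme that does so. The mark sits in DRACH motifs, most often with the core GGACT, and gathers near stop codons and in long exons, and cytoplasmic reader proteins of the YTHDF family shorten the life of the mRNAs that carry it. YTHDC1 reads m6A in the nucleus, while ZCCHC8 belongs to NEXT, a complex that hands nuclear RNA to the exosome for decay. The 10 mRNAs encode mitochondrial proteins (Mrm3, Mul1, Tmem11), factors of RNA processing, export, tRNA modification and translation (Clp1, Nxt1, Kti12, Pelo), and proteins of other kinds (Mad2l1bp, Tpst2, Ccdc71).

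GGACT was looked for in the spliced RNA of each gene, on the RNA strand alone, in the GENCODE M21 transcript with the longest coding sequence (build mm10). At least 1 copy was present in 9 of the 10 mRNAs, and in 91.5% of the 8233 protein-coding genes tested for label loss in the METTL3 line. It lay in the coding part of 7 of the 10 and of 77.1% of those genes, and within 200 bases of the end of the coding part of 5 of the 10 and of 39.1%. The spliced RNA of Mad2l1bp held none in this transcript. To show what these candidate methylation sites look like, the last coding copy of each of the 7 is printed below with its neighbors, 5′ to 3′ on the RNA strand and with GGACT in capitals.
Clp1: aacgttccaaGGACTtccggcggga
Tpst2: aacgcatcctGGACTtcctgggcat
Nxt1: tccggttccaGGACTgggccagcta
Mrm3: gttatgatttGGACTggacaggagc
Mul1: tgagcagccaGGACTttgacagcct
Pelo: agcgttctatGGACTcaagcaggtg
Kti12: tggtcatcctGGACTcggtgaacta

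These windows lie at chr2:84723940-84723964 on the minus strand (Clp1, exon 3 of 4), chr5:112308384-112308408 on the plus strand (Tpst2, exon 3 of 7), chr2:148675738-148675762 on the plus strand (Nxt1, exon 3 of 3), chr11:76250183-76250207 on the plus strand (Mrm3, exon 4 of 4), chr4:138439283-138439307 on the plus strand (Mul1, exon 4 of 4), chr13:115088791-115088815 on the minus strand (Pelo, exon 2 of 2) and chr4:108848114-108848138 on the plus strand (Kti12, its single exon). The copy in Nxt1 ended 11 bases before the end of the coding part, and that of Kti12, the farthest from it, 818 bases before. A match is a letter match only, since methylation was not measured in these libraries.

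Libraries of the METTL3 line held 9547507 to 18652000 reads, those of the YTHDC1 line 10397753 to 16129632, and those of the ZCCHC8 line 5274684 to 10257631. The 9 stem cell markers (among them Pou5f1, Sox2 and Nanog) summed to 2538 to 4053 CPM per library with none at 0. CPM is a gene's reads over the library's total, adjusted by a normalization factor per library and scaled to a fixed total. The 10 markers of feeder fibroblasts summed to 23.0 to 75.9 CPM, and their ranges in Ctrl and dTAG libraries overlapped in every line. By edgeR 4 of 9 stem cell markers were higher in dTAG in the ZCCHC8 line, where 20.1% of all genes were. In the METTL3 line 1 of 6 fibroblast markers tested (Acta2) was higher in dTAG, where 11.3% of all genes were. The part of these markers in the results below was not tested. The labels do not name separate cultures. The study's general reporting statement describes repeats of 1 clone and conditions split from 1 batch of cells within a repeat, without naming these libraries. Each arm of a line held 2 repeats with 1 library per chase time, and the main fits took these 6 libraries as separate samples. The p-values thus rest on the spread among libraries of 1 clone, not on 6 independent repeats, and n below counts libraries.

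In undepleted cells the 10 mRNAs turned over quickly, in all 3 lines. In the Ctrl libraries of the METTL3 line their median ratio at the end of the pulse was 0.873 in replicate 1 and 0.945 in replicate 2, where the median of the 8289 genes tested was 0.596 and 0.603. After 180 min of chase, a median of 38.6% and 33.1% of their starting ratio was left, against 82.1% and 85.5% over all genes tested. In the Ctrl libraries of the YTHDC1 line, which did not enter the choice of the genes, 34.3% and 30.2% was left against 84.2% and 75.9%, and in those of the ZCCHC8 line 52.5% and 44.5% against 119% and 97.8%. In the Ctrl libraries of the ZCCHC8 line the median ratio of all genes was higher after 90 min of chase than at its start, at 0.612 against 0.496 in replicate 1 and 0.623 against 0.541 in replicate 2. The same held in both dTAG replicates of that line. It also held in replicate 2 of the METTL3 line, in Ctrl (0.661 against 0.603) and in dTAG (0.564 against 0.484). In replicate 2 of dTAG in the YTHDC1 line the medians were 0.604 against 0.593, and in the remaining arms and replicates the median was lower at 90 min. A ratio falls through decay and also through dilution by RNA made after the pulse.

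In the METTL3 line, the median ratio of these mRNAs in dTAG libraries differed little between the 3 times (0.422, 0.425 and 0.383 in replicate 1, and 0.435, 0.499 and 0.486 in replicate 2). Over all genes tested the dTAG medians were 0.523, 0.476 and 0.352 in replicate 1, and 0.484, 0.564 and 0.449 in replicate 2. After 180 min a median of 87.3% and 112% of the starting ratio was left in the 10, against 74.3% and 98.9% over all genes. At the end of the pulse their ratios ran from 0.779 to 1 in Ctrl and from 0.320 to 0.637 in dTAG libraries, so the arms were apart in all 10 genes, with dTAG below Ctrl as in 47.1% of all genes tested. After 180 min both dTAG libraries were above both Ctrl libraries in 7 of the 10 and in 6.8% of all genes. In Ccdc71 both were still below, as in 34.8% of all genes, and in Mrm3 and Tpst2 the arms overlapped. All 10 were among the 30 genes of 8289 tested (0.362%) whose fall was slower by limma at an adjusted p under 0.05, as their choice fixes. The fall is given below as the log2 of the ratio per h, and its difference as dTAG minus Ctrl with the SE of the limma fit over 12 libraries. The 90% credible interval of GRAND-SLAM for a single ratio of these genes spanned at most 0.151 in this line.

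**Figure D1:**
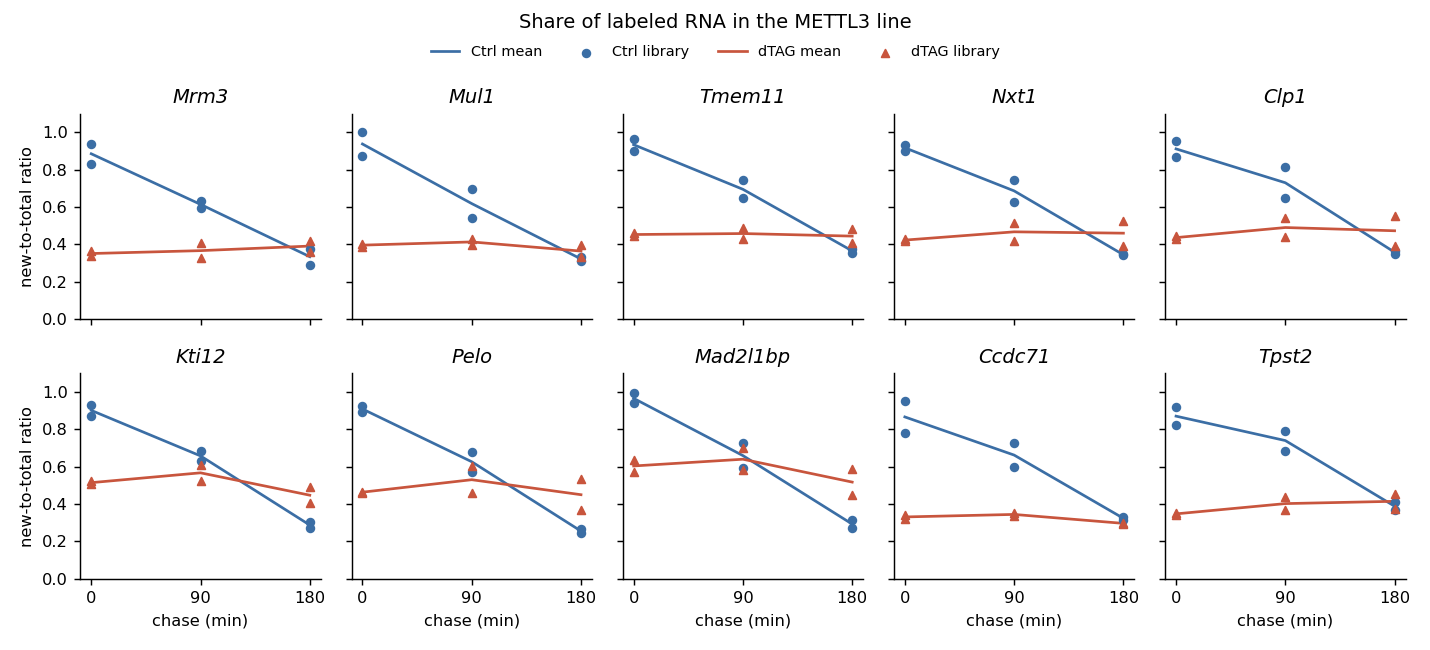
New-to-total ratio (y axis, 0 to 1) against minutes of uridine chase (x axis) for each of the 10 mRNAs in the METTL3 line, with circles for the 2 Ctrl libraries, triangles for the 2 dTAG libraries and lines through their means. Ctrl falls from between 0.779 and 1 to between 0.244 and 0.410, and dTAG stays between 0.296 and 0.699 throughout.

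Of the mitochondrial genes, Mrm3 encodes a methyltransferase of mitochondrial ribosomal RNA. Its ratio in the Ctrl libraries of replicates 1 and 2 was 0.831 and 0.938 at the end of the pulse, 0.593 and 0.634 after 90 min and 0.377 and 0.290 after 180 min. In dTAG libraries it was 0.339 and 0.362, then 0.326 and 0.406, then 0.361 and 0.420. The dTAG values were below Ctrl at 0 and 90 min and overlapped Ctrl at 180 min, with a slope difference of 0.52 ± 0.08 per h.

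Mul1, a ubiquitin ligase of the outer mitochondrial membrane, went in Ctrl from 0.874 and 1 through 0.541 and 0.695 to 0.313 and 0.330. Its dTAG libraries gave 0.404 and 0.387, 0.398 and 0.427, and at the last time 0.330 and 0.397. The slopes differed by 0.47 ± 0.08 per h, and the MAP of 1 in replicate 2 of Ctrl had a 90% credible interval of 0.954 to 0.998. Tmem11, a mitochondrial membrane protein that bears on the shape of the organelle, had Ctrl ratios of 0.900 and 0.966, then 0.645 and 0.743, and 0.355 and 0.374 at the end of the chase. With dTAG-13 the same gene stood at 0.462 and 0.442, 0.430 and 0.485 and finally 0.405 and 0.482. Its slope difference was 0.44 ± 0.08 per h.

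Among the RNA-handling genes, Nxt1 encodes the partner of the mRNA export receptor NXF1. Its Ctrl ratios were 0.901 and 0.932 before the chase, 0.628 and 0.744 at 90 min and 0.341 and 0.347 at 180 min. Its dTAG ratios were 0.417 and 0.428, 0.419 and 0.514 and 0.393 and 0.526 at these times. Replicate 2 of dTAG was higher at 90 and 180 min than before the chase, and the slope difference was 0.51 ± 0.09 per h.

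Clp1 is a polynucleotide kinase of mRNA 3′ end cleavage and of tRNA splicing. Label in Ctrl cells went from 0.869 and 0.953 over 0.646 and 0.813 to 0.365 and 0.349. In depleted cells it went from 0.426 and 0.445 over 0.438 and 0.541 to 0.391 and 0.553, a slope difference of 0.48 ± 0.09 per h. As for Nxt1, label in replicate 2 of dTAG did not fall.

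Kti12 encodes a factor that works with Elongator in the modification of wobble uridines of tRNA, and it is read from a single exon. The Ctrl ratio was 0.873 and 0.931, later 0.632 and 0.684, and at last 0.274 and 0.302. The dTAG ratio was 0.507 and 0.523, later 0.526 and 0.609, and at last 0.406 and 0.489. Both arms were lower at 180 than at 0 min, and the slopes differed by 0.48 ± 0.09 per h.

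Pelo, which rescues stalled ribosomes together with HBS1L, showed the steepest Ctrl slope of the 10, at -0.61 per h. Its ratio there was 0.893 and 0.926, 0.574 and 0.679 and 0.266 and 0.244 at the 3 times, and with dTAG-13 0.461 and 0.466, 0.458 and 0.603 and 0.366 and 0.534. The slope difference, 0.59 ± 0.10 per h, was also the highest of the 10.

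Of the remaining genes, Mad2l1bp encodes p31comet, which strips MAD2 from the spindle checkpoint complex. In Ctrl its ratio was 0.939 and 0.994, 0.592 and 0.727 and 0.271 and 0.315. Depleted cells gave 0.637 and 0.572, 0.581 and 0.699 and 0.447 and 0.589. These were the highest dTAG ratios of the 10 at the end of the pulse, on 325 and 437 reads, and the slope difference was 0.50 ± 0.09 per h.

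Ccdc71, a coiled-coil protein, had Ctrl ratios of 0.779 and 0.955, then 0.599 and 0.726, then 0.331 and 0.317. In dTAG libraries they were 0.342 and 0.320, then 0.351 and 0.339, then 0.298 and 0.296. Here alone among the 10 both dTAG libraries remained below both Ctrl libraries at 180 min, and the slope difference of 0.42 ± 0.09 per h was the lowest. Tpst2, a tyrosine sulfotransferase of the Golgi, ran in Ctrl from 0.823 and 0.919 through 0.686 and 0.794 to 0.410 and 0.367, the slowest Ctrl fall of the 10 at -0.39 per h. Its dTAG ratios were 0.352 and 0.343, 0.370 and 0.435 and 0.374 and 0.456, with a slope difference of 0.47 ± 0.09 per h.

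Over the 10 genes the slope difference ran from 0.42 to 0.59 per h with a median of 0.48, where the median of all 8289 genes was -0.01. By p they stood at ranks 1 to 18 of the 30 genes called, a count that was 81 with the replicate number as a block (79 with a slower fall, 0.953% of the genes tested), 2 without replicate 1 and 256 without replicate 2. The last gene called was Mrps2, at 0.37 per h, and the first not called was Rnf25, at 0.39 per h. With only the 0 and 90 min libraries the 10 genes' slope differences were 0.30 to 0.48, and with only the 90 and 180 min libraries 0.50 to 0.70. Fitted at the end of the pulse, log2 label was lower in dTAG by a median of 1.16 (values of -1.44 for Ccdc71 to -0.72 for Mad2l1bp), and it was lower by test in 11.7% of all genes. The same contrast chose the 10 genes, so no test at the end of the pulse is given for them.

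The drop of the ratio at the end of the pulse came with more unlabeled RNA in all 10 genes, while labeled RNA was higher in dTAG in both replicates in 7 of them, in replicate 2 alone in Mul1 and Mad2l1bp, and in neither in Ccdc71. Labeled RNA was taken as CPM times the ratio, and unlabeled RNA as the rest. The latter is RNA from before the pulse and, once the chase has begun, RNA made after it. At the end of the pulse, unlabeled RNA of the 10 genes ran from 0 to 8.88 CPM in the 2 Ctrl libraries and from 9.87 to 135 CPM in the 2 dTAG libraries.

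For Tmem11, the most abundant of them, labeled RNA at the end of the pulse was 56.9 and 74.2 CPM in Ctrl and 66.6 and 107 CPM in dTAG libraries. Its unlabeled RNA was 6.30 and 2.60 CPM in Ctrl and 77.6 and 135 CPM in dTAG. Ccdc71 was the exception on the labeled side, with 17.2 and 26.8 CPM in Ctrl and 7.46 and 13.2 CPM in dTAG. So its labeled RNA was lower in depleted cells in both replicates.

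Within a replicate, labeled RNA at the end of the pulse was a median of 1.14 times (replicate 1) and 1.36 times (replicate 2) as high in dTAG as in Ctrl, and over all genes 0.928 and 0.862 times. Unlabeled RNA was 10.2 times as high over the 10 genes in replicate 1 and 31.9 times over the 9 genes with a Ctrl value above 0 in replicate 2, against 1.02 and 1.19 times over all genes. These folds rest on Ctrl ratios close to 1 and are imprecise. After 180 min, labeled RNA was 1.76 and 2.68 times and unlabeled RNA 1.27 and 1.29 times as high in dTAG as in Ctrl, where all genes had medians of 0.866 and 0.956 times (labeled) and 1.19 and 1.01 times (unlabeled). With posterior means in place of MAP values the median log2 fold of unlabeled RNA at the end of the pulse was 3.93, against 3.98 with MAP values.

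**Figure D2:**
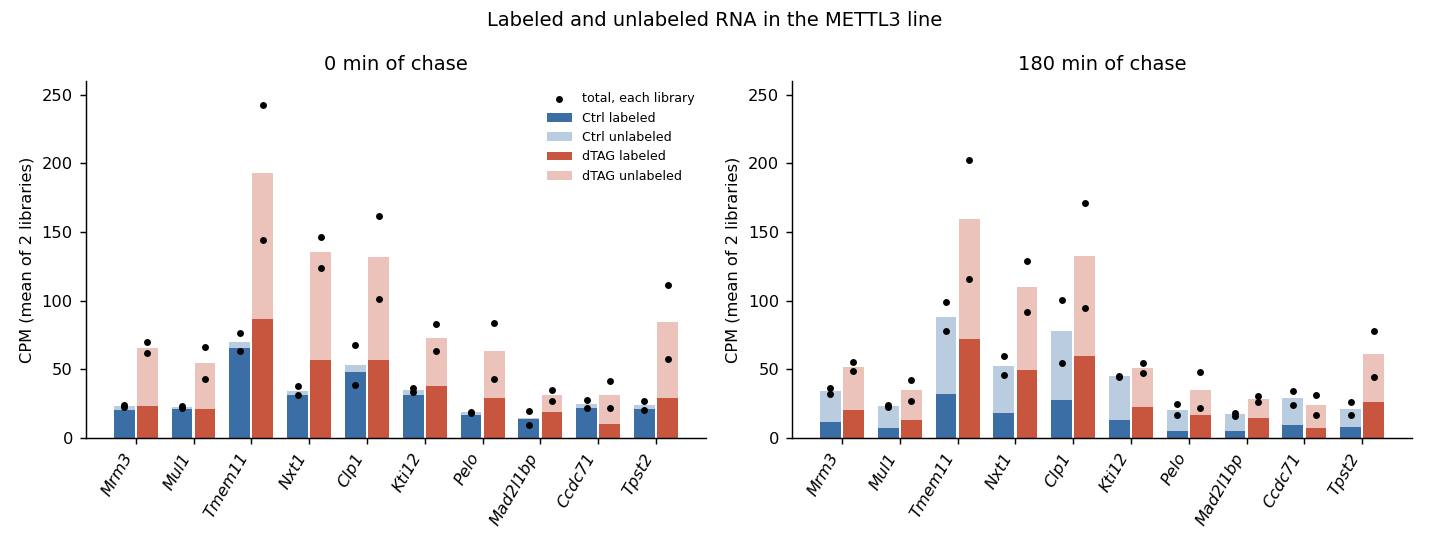
Stacked bars of labeled (solid) and unlabeled (pale) RNA of the 10 mRNAs in CPM (y axis, mean of 2 libraries) at 0 min (left) and 180 min (right) of chase in the METTL3 line, Ctrl blue and dTAG red, with points for the total of each library. At 0 min the unlabeled part is 0 to 8.88 CPM in Ctrl libraries and 9.87 to 135 CPM in dTAG libraries, and at 180 min both arms hold much unlabeled RNA.

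Total levels in the METTL3 line were higher in dTAG for 9 of the 10 genes in all 6 pairs of libraries, and in 7 of them the 6 dTAG libraries did not overlap the 6 Ctrl libraries, as in 5.15% of the 14413 genes tested. The edgeR test called 11.3% of all genes higher and 8.8% lower in dTAG. These shares are background only, since the libraries that chose the 10 genes cannot test them. With the replicate number as a block the shares of all genes were 24.4% and 24.1%. In bulk libraries fewer cells and less RNA per cell cannot be told apart. Tpst2 had the highest fold, with a lowest, median and highest level of 17.1, 23.1 and 27.4 CPM in Ctrl and 44.4, 67.5 and 112 CPM in dTAG libraries (log2 fold change 1.68 ± 0.24, SE, n = 6 per arm). Nxt1 followed, with 29.8, 41.9 and 59.8 CPM in Ctrl and 91.7, 126 and 146 CPM in dTAG (1.52 ± 0.20). Neither gene's arms overlapped.

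Pelo gave 13.3, 18.7 and 25.002 CPM in Ctrl and 22.2, 45.4 and 83.7 CPM in dTAG libraries (log2 fold change 1.37 ± 0.28), and Clp1 gave 38.99, 61.4 and 101 CPM and 94.5, 132 and 171 CPM (1.05 ± 0.27). Both were higher in every pair although the arms overlapped. The log2 fold changes of Tmem11 (1.21 ± 0.21), Mrm3 (1.06 ± 0.15), Mad2l1bp (1.03 ± 0.18), Mul1 (0.96 ± 0.19) and Kti12 (0.71 ± 0.16) came without overlap. Ccdc71 stood apart from the rest, at 18.5, 26.3 and 34.4 CPM in Ctrl and 16.9, 26.5 and 41.2 CPM in dTAG (0.08 ± 0.27) and higher in 2 of 6 pairs. Without replicate 2 its log2 fold change was -0.18 and without replicate 1 it was 0.26. All these folds are over the 3 chase times together. Except in replicate 1 of Mad2l1bp, the dTAG to Ctrl ratio of read level fell from 0 to 180 min in every gene and replicate. Kti12 had 33.3 and 36.3 CPM in Ctrl and 63.3 and 83.0 CPM in dTAG libraries at 0 min. At 180 min Kti12 had 44.8 and 45.5 CPM in Ctrl and 47.2 and 54.5 CPM in dTAG libraries.

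In the YTHDC1 and ZCCHC8 lines, which did not enter the choice, no difference between arms in label loss was detected for the same mRNAs. The slope difference ran from -0.12 for Ccdc71 to 0.00 for Mrm3 in the YTHDC1 line (SE 0.08 to 0.11) and from -0.09 for Pelo to 0.09 for Mrm3 in the ZCCHC8 line (SE 0.07 to 0.11). By limma with Benjamini-Hochberg adjustment none of the 10 genes in the YTHDC1 line and none of the 9 tested in the ZCCHC8 line differed, and all adjusted p were 1. Mad2l1bp was not tested in the ZCCHC8 line because 1 or more of its libraries held under 100 reads (lowest 71). No gene at all was called there or in the YTHDC1 line (0%), and 173 genes of 8820 (1.96%) and 129 of 7251 (1.78%) had an unadjusted p under 0.05, none of them among the 10, whose smallest unadjusted p were 0.208 and 0.228. Without replicate 2 the ZCCHC8 line had 26 genes called, again none of the 9.

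In Ctrl libraries of the YTHDC1 line Pelo went from 0.916 and 0.943 through 0.571 and 0.540 to 0.274 and 0.243, and with dTAG-13 from 0.845 and 0.930 through 0.537 and 0.647 to 0.174 and 0.233. In the ZCCHC8 line its ratios were 0.949 and 0.951, 0.838 and 0.715 and 0.498 and 0.287 in Ctrl, and 0.936 and 0.969, 0.504 and 0.732 and 0.373 and 0.270 in dTAG libraries. From 0 to 180 min the ratio of Pelo went down in both arms of both lines, and so did that of all 10 genes in every replicate. For a single ratio the widest 90% credible interval was 0.157 (YTHDC1 line) and 0.192 (ZCCHC8 line).

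Label at the end of the pulse did not pass the limma test for any of the 10 in the YTHDC1 line or of the 9 in the ZCCHC8 line, where 0.0227% and 0.0414% of all genes were called. The log2 differences ran from -0.19 for Mrm3 to 0.03 for Pelo (SE 0.15 to 0.21) and from -0.18 for Mrm3 to 0.01 for Nxt1 (SE 0.13 to 0.22), and the smallest adjusted p was 1 and 0.985. An effect called in 1 line and not in another is not thereby shown to differ, and the difference between lines was not tested for these genes because the METTL3 values chose them.

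**Figure D3:**
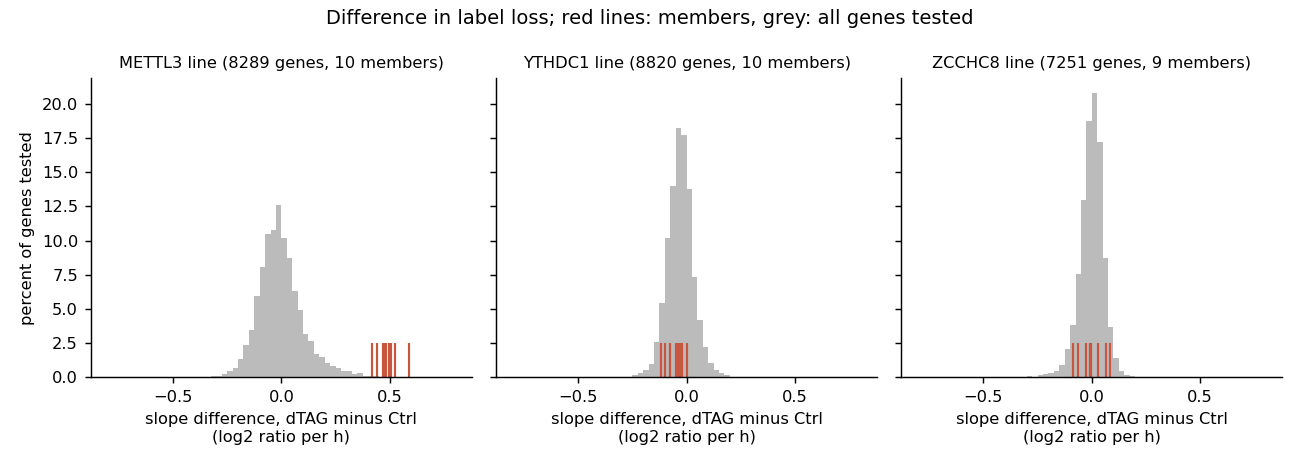
Percent of genes tested (y axis) by the difference in slope of log2 ratio, dTAG minus Ctrl, per h of chase (x axis) in the METTL3, YTHDC1 and ZCCHC8 lines, with grey bars for all genes and red lines for the 10 mRNAs (9 in the ZCCHC8 line). The red lines stand between 0.42 and 0.59 in the METTL3 line, which chose them, and between -0.12 and 0.09 in the other lines.

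After loss of YTHDC1, 1 of the 10 genes passed in read level in the fit without a replicate block. Mrm3 alone passed the edgeR test, with a lowest, median and highest level of 25.8, 28.3 and 35.97 CPM in Ctrl and 17.7, 22.9 and 27.05 CPM in dTAG libraries (n = 6 per arm). It fell by 0.37 ± 0.08 on the log2 scale (adjusted p 0.0195) and was lower in 6 of 6 pairs, where 2.77% of 14199 genes were called lower and 5.25% in either direction. The arms of Mrm3 overlapped by their extremes. With the replicate number as a block, which read levels share between samples of the same number, 27.3% of all genes passed, 14.1% as lower, and so did 5 of the 10 genes, all lower in dTAG.

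Under the block these were Mrm3 (-0.37, adjusted p 0.000401), Ccdc71 (-0.31, adjusted p 0.0016), Nxt1 (-0.27, adjusted p 0.00386), Mul1 (-0.22, adjusted p 0.0318) and Mad2l1bp (-0.20, adjusted p 0.0419), each by edgeR on the log2 scale. Without the block the adjusted p of the last 4 were 0.288, 0.188, 0.282 and 0.315. Nxt1, Mad2l1bp and Ccdc71 were lower in all 6 pairs, and Mul1 in 5 of 6. The remaining 5 genes had log2 fold changes of -0.13 for Clp1 to 0.13 for Tpst2 and passed neither fit. Without the block, 3 of the 10 passed when replicate 1 was left out and 2 when replicate 2 was. Of all genes, 3555 and 1335 passed in these settings, against 746 in the main fit.

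After loss of ZCCHC8, 6 of the 10 genes passed the edgeR test, 4 higher and 2 lower, where 20.1% of 13962 genes were called higher and 19.5% lower (39.6% in all). Clp1 had the highest rise, from 39.999, 43.5 and 53.8 CPM (lowest, median and highest Ctrl library) to 49.3, 58.2 and 73.4 CPM in dTAG libraries (log2 fold change 0.41 ± 0.06, SE, adjusted p 5.64e-06). Mad2l1bp stood at 12.2, 14.4 and 18.6 CPM in Ctrl and 15.7, 18.9 and 24.99 CPM in dTAG (0.37 ± 0.09, adjusted p 0.00288). Both were higher in 6 of 6 pairs.

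Kti12 (0.22 ± 0.05, adjusted p 0.00223) and Tmem11 (0.17 ± 0.05, adjusted p 0.00745) also rose by edgeR, in 6 of 6 pairs each. Tpst2 fell, from 23.9, 29.2 and 33.3 CPM in Ctrl to 21.02, 23.1 and 25.7 CPM in dTAG libraries (-0.31 ± 0.08, adjusted p 0.00365), as did Ccdc71 (-0.23 ± 0.07, adjusted p 0.014), each in 5 of 6 pairs. Mrm3 (-0.12), Nxt1 (-0.06), Mul1 (0.13) and Pelo (0.18) did not pass. In all 6 genes called, the arms overlapped by at least 1 library. Without replicate 2 of this line only Clp1 passed, and without replicate 1 the number was 6. Of all genes, 3409 and 5091 passed in these settings, against 5533 in the main fit.

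**Figure D4:**
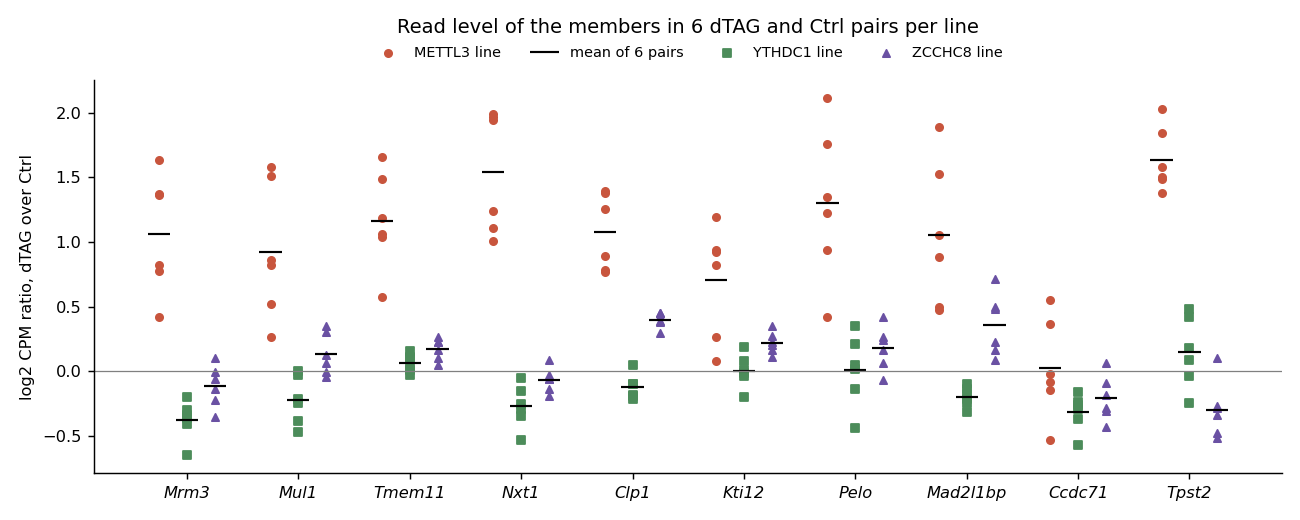
log2 of the CPM ratio of dTAG over Ctrl (y axis) for each of 6 pairs of libraries with the same chase time and replicate number, by gene (x axis) and line (circles METTL3, squares YTHDC1, triangles ZCCHC8), with bars for the means. In the METTL3 line 9 genes are above 0 in all 6 pairs and Ccdc71 in 2, and in the YTHDC1 line Mrm3, Nxt1, Mad2l1bp and Ccdc71 are below 0 in all 6.

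Per kilobase of the deposited gene length, the levels in Ctrl cells spanned about the same range in each line. In the METTL3 line Tmem11 was highest at 51.3 ± 8.82 CPM per kb (SD, n = 6), followed by Nxt1 at 39.0 ± 11.4, Clp1 at 25.3 ± 9.89, Kti12 at 23.2 ± 3.62 and Mrm3 at 19.0 ± 3.64. Tpst2 (12.3 ± 2.48), Mad2l1bp (11.8 ± 3.08) and Pelo (11.6 ± 2.39) lay closer together than their spread, above Ccdc71 at 8.55 ± 1.90 and Mul1 at 5.94 ± 0.34. Tmem11 and Nxt1 led and Ccdc71 and Mul1 came last in the YTHDC1 and ZCCHC8 lines too. Clp1 came next after Nxt1 in the METTL3 and YTHDC1 lines and below Kti12 and Mrm3 in the ZCCHC8 line, at 17.7 ± 2.26, where it differed from Mrm3 (19.4 ± 2.88) by less than their spread.

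Most of the 10 genes are compact, with few exons. This was known when they were put together, so it is given as a description. They had 1 to 7 exons with a median of 3, all below the median of 10 exons over the 8233 protein-coding genes tested, and 9 of 10 had at most 5 exons, against 23.9% of all. Their span in the genome ran from 1629 bases in Kti12 to 38671 in Tpst2 with a median of 5789.5, where the median of all was 26560. Tpst2 (7 exons) spanned more than the median gene, and Tmem11 (2 exons) spanned 14821 bases, so not all 10 are short genes. Spliced RNA had a median of 1614.5 bases against 3129 in all genes, but with the shortest coding transcript of each gene the medians were 1114 and 947 bases, the other way round. Exon number kept its direction there, with medians of 3 and 5.

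The last exon held a median of 64.2% of the spliced RNA of the 10 genes and 46.7% over all genes, with 97.1% in Ccdc71, 88.8% in Mul1 and 25.3% in Clp1 (Kti12 has a single exon). GGACT occurred 1.15 times per kb of spliced RNA in the 10 (median; 0 in Mad2l1bp to 2.75 in Tmem11) and 1.01 times per kb in all genes. The other 20 genes called for slower label loss had a median of 3 exons and a median span of 3927.5 bases as well. All of these are medians over genes, described without a test.

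Among the genes outside the 10, label loss in the METTL3 line was also set against exon number and span, without a test of either trend or between them. The median slope difference was 0.03 per h in 382 genes with 1 or 2 exons, 0.01 in 1577 genes with 3 to 5, -0.01 in 2474 genes with 6 to 10, -0.02 in 2493 genes with 11 to 20 and -0.03 in 1297 genes with more. The median log2 fold change of read level in the same groups went from 0.15 to -0.10, and the share called for slower label loss from 1.83% through 0.634%, 0.0808% and 0.0401% to 0%. By span, the median slope difference was -0.003 in 715 genes of up to 5000 bases and -0.016 in 2398 genes above 50000 bases. The share called was 1.54% of the genes of up to 5000 bases, 0.311% up to 10000, 0.305% up to 20000, 0.0399% up to 50000 and 0% above. Of the 10 genes, 4 had 1 or 2 exons, 5 had 3 to 5, and 1 had 6 to 10.

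**Figure D5:**
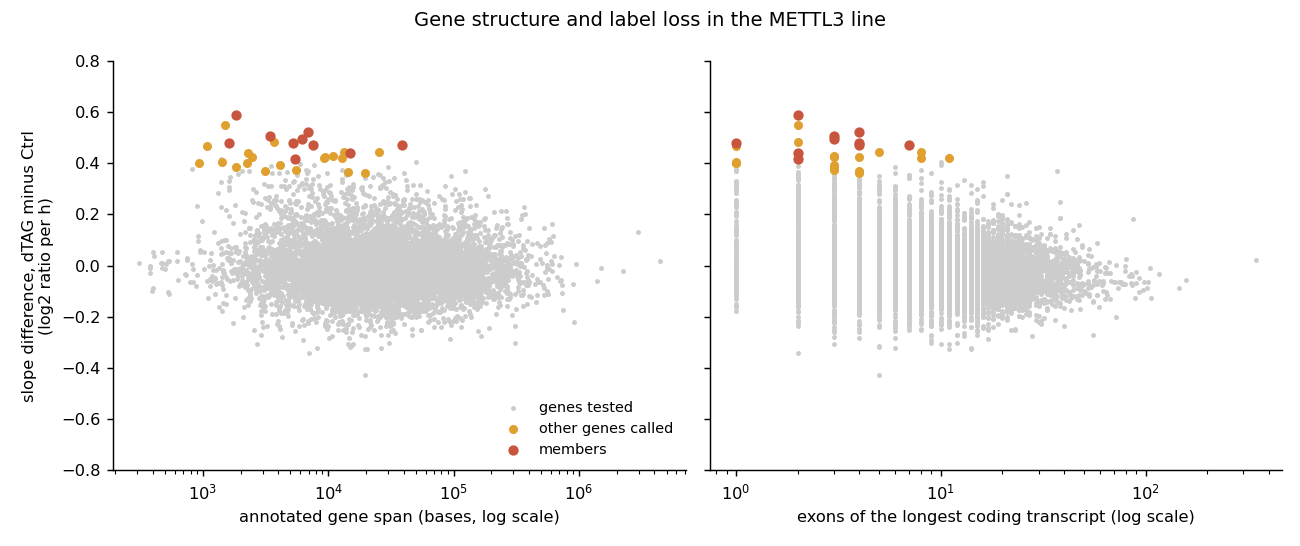
Slope difference of log2 ratio, dTAG minus Ctrl, per h in the METTL3 line (y axis) against annotated gene span in bases (left, log scale) and exon number of the transcript with the longest coding sequence (right, log scale), with the 10 mRNAs in red, the 20 other genes called in orange and the remaining protein-coding genes tested in grey. The 10 lie at 1 to 7 exons, and 8 of them span under 10000 bases.

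In all, 5 of the 10 overlap another annotated gene, against 56.4% of all genes tested. Kti12 lies within Txndc12 and Pelo within Itga1 on the same strand (Pelo also shares its strand with Gm49395), while Mrm3, Tmem11 and Ccdc71 overlap Glod4, Gm26534 and Klhdc8b on the opposite strand. Kti12 and Pelo have partners on the opposite strand too, A730015C16Rik and Gm10734. How reads were assigned between overlapping genes is not given in the sources used here, so the values of these 5 genes may hold reads of their neighbors.

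The non-members whose label followed that of the 10 most closely were Ythdf2, Tssc4, Atmin, Abt1 and Rnf113a2, with Pearson r of 0.991, 0.987, 0.986, 0.986 and 0.985 over 36 libraries. Here log2 ratios were centered within each line and set against the mean of the 9 members tested in every line, over 7011 genes with a median r of 0.44. All libraries share the pulse and chase, so r describes the time course as well as the arms. Ythdf2 encodes a cytoplasmic m6A reader that recruits deadenylation, and in the METTL3 line its slope difference was 0.31 per h and its log2 fold change 0.67. It was not called for label loss there, while Tssc4 and Abt1 were. Over the 24 libraries of the YTHDC1 and ZCCHC8 lines alone none of these 5 was among the 5 most alike, which were led by Hjurp at 0.998.

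Genes whose products work with those of the 10 were looked up in the same fits. Of 81 genes in 8 lists of such partners, 77 were in the tables, and none of the 73, 76 and 68 tested for label loss in the METTL3, YTHDC1 and ZCCHC8 lines passed by limma, except 1 (Mterf4, slower) in METTL3 cells under the replicate block. At the end of the pulse, label was higher in 1 and lower in 12 of the 73 in METTL3 cells, where 0.591% and 11.7% of all genes were, and 0 passed in the other lines. By edgeR, 8 of 77 were higher and 7 lower with dTAG-13 in METTL3 cells, 1 and 3 in YTHDC1 cells, and 11 and 19 in ZCCHC8 cells. Of all genes, 11.3% were higher and 8.8% lower in METTL3 cells, 2.48% and 2.77% in YTHDC1 cells, and 20.1% and 19.5% in ZCCHC8 cells, so the counts in METTL3 and YTHDC1 cells lie near the background. With the replicate block 15 were higher and 24 lower in METTL3 cells, where 24.4% and 24.1% of all genes were. In YTHDC1 cells 5 and 11 were, against 13.2% and 14.1% of all genes. The lists are described by counts and medians, not tested as sets.

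Of the 9 genes of ribosome rescue around Pelo, 0 passed in the METTL3 and YTHDC1 lines, where their median log2 fold changes were -0.10 and 0.01, and in the ZCCHC8 line Zfp598 (-0.17, adjusted p 0.0105) and Ascc2 (-0.14, adjusted p 0.0249) fell by edgeR. Of the 13 mRNA export genes around Nxt1, 4 fell in the METTL3 line, among them Ddx39b, the helicase of the TREX complex (-0.85, adjusted p 0.00295), and Thoc6 (-0.69, adjusted p 0.0024), and the median was -0.26. In the YTHDC1 line 2 fell, Ddx39b (-0.38, adjusted p 0.00822) and Sarnp (-0.38, adjusted p 0.026), by edgeR. In the ZCCHC8 line 4 of them rose and 4 fell, with Ddx39b (0.22, adjusted p 0.000216) and Thoc6 (0.23, adjusted p 0.000258) higher and Thoc2 (-0.44, adjusted p 1.74e-07) lower.

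For Kti12, 2 of 10 tested genes of Elongator and wobble uridine modification rose in the METTL3 line, Alkbh8 (0.49, adjusted p 0.0251) and Dph3 (0.70, adjusted p 0.0322), by edgeR. In the ZCCHC8 line 2 of the 10 rose and 2 fell, with Ctu2 higher (0.49, adjusted p 3.82e-06) and Dph3 lower (-0.22, adjusted p 0.0143). Around Clp1, 2 of 18 genes rose in the METTL3 line and 0 fell, and in the ZCCHC8 line Pcf11 (0.23, adjusted p 0.000577) and Cstf3 (0.28, adjusted p 0.000779) rose and Sympk (-0.22, adjusted p 0.00059) fell, with 3 of 18 in each direction. Around Mrm3, 1 of 5 tested genes of mitochondrial rRNA methylation rose in the METTL3 line, Mterf4 (1.09, adjusted p 0.00204), and Mrm2 fell in the YTHDC1 line (-0.36, adjusted p 0.0442).

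Of 10 genes of mitochondrial shape tested beside Mul1 and Tmem11, 1 rose and 2 fell in the METTL3 line, 1 rose in the YTHDC1 line (Oma1, 0.42, adjusted p 0.0179), and 6 fell in the ZCCHC8 line with Immt (-0.26, adjusted p 2.59e-05) and Apoo (-0.40, adjusted p 0.000214) among them, while Mfn2 rose (0.35, adjusted p 4.35e-05), by edgeR. Of the 8 spindle checkpoint genes around Mad2l1bp, Cdc20 fell in the METTL3 line (-0.83, adjusted p 0.000428) and Bub1b in the ZCCHC8 line (-0.13, adjusted p 0.0103). Of the 4 sulfation genes around Tpst2, Slc35b2, the Golgi transporter of the sulfate donor (0.79, adjusted p 0.00147), and Papss2 (0.78, adjusted p 0.0328) rose in the METTL3 line by edgeR. In the ZCCHC8 line Slc35b2 rose (0.24, adjusted p 0.00701) and Papss1 fell (-0.30, adjusted p 0.0202).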

How the data were processed

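SLAM-seq libraries of 3 degron lines were deposited as 6 GRAND-SLAM tables, 1 per line and replicate. The deposited read counts per gene are raw counts from STAR 2.5.2b alignments to mm10, kept where reads mapped uniquely and within a mismatch limit, which can remove heavily converted reads. The deposited new-to-total ratio is a fraction from 0 to 1, given by the authors as MAP, posterior mean and 5% to 95% quantiles. The deposited T-to-C conversions and T coverage are a signal per gene, used for an alternative label measure. The GRAND-SLAM version, the annotation release and the use of strand in counting are not given in the sources used here. Of the per-library columns, 252 were used and 180 were not.

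The log2 MAP ratio was fitted per line with limma 3.58.1 on arm, chase time in h and their interaction, for genes that reached 100 reads and a ratio of 0.02 in all 12 libraries of the line. The interaction is the difference in label loss, and the arm term is the difference at the end of the pulse. Raw counts were tested with edgeR 4.0.16 (quasi-likelihood, TMM, filterByExpr, chase time as a factor) in R 4.3.3, with DESeq2 1.42.0 as an alternative. This edgeR test returns no SE. The SE given with its log2 fold changes is their absolute value over the square root of the test's F statistic. The threshold was a Benjamini-Hochberg adjusted p of 0.05 over all genes tested. CPM is a gene's counts over the library's total count after adjustment by a normalization factor per library, scaled to a fixed total. Gene models came from GENCODE M21. Both fits were tested on simulated data with 200 changed genes. At a slope difference of 0.5 per h, 88.5% (METTL3), 94.5% (YTHDC1) and 98% (ZCCHC8) were recovered, with 8, 9 and 23 false calls. At a log2 fold change of 1 in counts 63%, 80% and 96% were, with 1, 15 and 10 false calls. Simulated libraries varied independently, without a deviation shared by same-numbered libraries, so recovery in the real libraries can differ.

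The main fits held no replicate block and so left pairing out. The study's reporting statement has the conditions of a repeat split from 1 batch of cells. Same-numbered Ctrl and dTAG libraries were therefore taken as pairs where pairs were counted and where the block was used. They deviated together in read level in every pair (r of 0.587 to 0.755 in the METTL3, 0.651 to 0.712 in the YTHDC1 and 0.175 to 0.187 in the ZCCHC8 line, across genes) and in label in some pairs (r of -0.141 to 0.478). Replicates differed beyond sampling noise in every group (chi-square per degree of freedom 2.34 to 72.7). Depth was 5274684 to 18652000 reads per library.

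The 10 genes and all lists were chosen with earlier results of these data known. Other genes named are the 5 non-members most alike in label, the genes on each side of the label loss threshold, and at most 3 per partner list by adjusted p. Acta2 was named after its value was seen.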

Additional observations from a re-analysis of the deposited data

Results flagged for a closer look

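In 3 of the 10 genes, the dTAG to Ctrl ratio of read level lay above 1 in every pair of libraries of 1 line and below 1 in every pair of another. The differences between lines were not tested. Such a pattern was found in 4.73% of the 14046 genes tested in both the METTL3 and YTHDC1 lines and in 6.13% of the 13677 tested in both the YTHDC1 and ZCCHC8 lines. By edgeR without the replicate block, Mrm3 passed in the YTHDC1 line (adjusted p 0.0195), and Nxt1 (adjusted p 0.188) and Mad2l1bp (adjusted p 0.315) did not. Mrm3 was higher in dTAG in 6 of 6 pairs of the METTL3 line (log2 fold change 1.06) and lower in 6 of 6 pairs of the YTHDC1 line (-0.37), a difference of 1.44. Nxt1 was likewise higher in the METTL3 line (1.52) and lower in the YTHDC1 line (-0.28), a difference of 1.80. Mad2l1bp was higher in the METTL3 line (1.03) and lower in the YTHDC1 line (-0.20), a difference of 1.22, and it was higher in 6 of 6 pairs of the ZCCHC8 line (0.37), which puts the YTHDC1 line below the ZCCHC8 line by a difference of -0.566. The METTL3 values belong to the contrast that chose the genes.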

How the results depend on the processing

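Direction held for the 10 genes in the METTL3 line under every alternative run, except Ccdc71 in read level without replicate 2. These libraries chose the genes, so this is a description and no test. Their values moved by at least the SE of the main fit, or changed sign, in 29 of 90 gene and setting pairs of label loss. The same held in 4 of 70 pairs at the end of the pulse and 9 of 60 in read level. No called value of the 10 was reversed. Counts of genes called moved more. Label loss in the METTL3 line was called for 30 genes, for 0 with no filter on reads, 81 with the replicate block, 11 with the T-to-C rate, 0 with only the 0 and 90 min libraries, 0 with only the 90 and 180 min libraries, and 2 to 256 when leaving out a replicate. In the ZCCHC8 line leaving out a replicate gave 0 to 26 genes against 0. At the end of the pulse the METTL3 line had 1021 genes called, 311 with the T-to-C rate and 351 to 754 when leaving out a replicate. The YTHDC1 line had 2 there, 0 with no filter, 0 with the T-to-C rate and 0 to 23 when leaving out a replicate, and the ZCCHC8 line 3, with 0 to 96.

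In read level the METTL3 line had 2898 genes called, 6994 with the replicate block and 5717 to 7472 when leaving out a replicate. The YTHDC1 line had 746, 3875 with the block, 1127 by DESeq2 and 1335 to 3555 when leaving out a replicate, and the ZCCHC8 line 5533, with 3409 to 5091. Of the 10 genes, 1 was called in the YTHDC1 line, 5 with the block and 2 to 3 when leaving out a replicate. In the ZCCHC8 line 6 were called, and 1 to 6 when leaving out a replicate. The highest likeness was 0.991, and 0.998 over the 24 libraries of the other lines. The causes were not tested.

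In label the block called none of the 10 in the YTHDC1 and ZCCHC8 lines, and in read level it changed no other call among the 10 there. Uncalled label loss values changed sign in 15 of 90 (YTHDC1) and 15 of 81 (ZCCHC8) gene and setting pairs. A ratio near 1 and Mad2l1bp at 71 reads limit what depth can resolve.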
